A study of Mus musculus with 10 samples.

Results

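Nebulin (Neb), the nebulin-related protein Nrap, the tropomodulins Tmod1 and Tmod4 and the capping protein subunit Capza2 set, or are tied to, the length and anchorage of the thin filament. Their transcripts were followed in quadriceps muscle of 5 inbred mouse strains. The 5 genes were picked by symbol, with the low Neb and Tmod1 levels of strain BL6 already known from these data, and every spot annotated to them was kept. They account for 5 of 6540 named genes and for 8 of 7697 features tested, where a feature is a sequence with its own GenBank number, spotted on the array in duplicate. Neb has 4 features (AF203898, AF203899, U58108 and X70032), and Nrap (NM_008733), Tmod1 (NM_021883), Tmod4 (NM_016712) and Capza2 (NM_007604) have 1 each. The 4 Neb features read the same transcript in the same animals and are not replicates of one another.

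The study compared muscle gene expression between healthy strains with no treatment. Male CBA/CaOlaHsd (CBA), C57Bl/10ScSnOlaHsd (BL10), C57Bl/6JOlaHsd (BL6), DBA/2OlaHsd (DBA) and BALB/cOlaHsd (BALB) mice came to the laboratory when 6 weeks old and were killed when 8 weeks old, and the m. quadriceps femoris of 2 animals per strain was taken. Every array held cDNA of a Cy5 animal and of a Cy3 animal from different strains, and the 10 arrays close into a smaller loop (BL6 2, CBA 1, BL10 1 and BALB 2, the number naming the animal) and a larger loop (DBA 2, BALB 1, CBA 2, BL10 2, DBA 1 and BL6 1). All groups share sex, age, muscle and supplier, so each strain stands for its whole genetic background and for no particular allele. The array of BL6 2 over CBA 1 and that of BALB 1 over CBA 2 hold the same value at every spot under labels that name different animals. Both were therefore left out, and 8 arrays were used, of which 3 belong to the smaller loop and 5 to the larger one. The values are ratios between 2 animals, here on the log2 scale with the array median at 0, so that 1 unit is a doubling. They hold no level of a gene within an animal, and neither the muscle identity of the tissue nor the level of one gene against another could be checked. In bulk muscle, fewer cells of a type and less RNA per cell cannot be told apart.

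The thin filament is an actin polymer whose barbed end is held in the Z-disc and whose pointed end reaches toward the middle of the sarcomere. Nebulin is a giant protein that runs along the filament in skeletal muscle and stabilises it, and its loss shortens thin filaments and causes nemaline myopathy in people. Tropomodulins cap the pointed end, CapZ, a dimer of an alpha and a beta subunit, caps the barbed end, and Nrap is a scaffold of the assembling myofibril and of the ends of muscle cells.

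The start of transcription was looked at for the members because 3 of them, Neb, Nrap and Tmod1, had ratios that ran alike over the arrays, and those of Tmod4 ran less alike. RefSeq windows of the C57BL/6J reference (GRCm38.p6, from 250 bases before to 50 bases after the start) matched 4 of the 5 genes by symbol, and Neb was not among them. Searched on both strands were the E-box of myogenic factors (CANNTG), the M-CAT element of TEAD factors (CATTCC, read as GGAATG on the other strand), and the MEF2 and CArG motifs. Of 32851 windows of this length, 72.3% held an E-box, 14.7% an M-CAT element, 3.19% a MEF2 motif and 1.63% a CArG box. The windows of Nrap (chr19:56389989-56390288, minus strand), Tmod1 (chr4:46038972-46039271, plus strand) and Tmod4 (chr3:95124264-95124563, plus strand) are given 5′ to 3′ on the strand of the gene, with each match in capitals.
Nrap: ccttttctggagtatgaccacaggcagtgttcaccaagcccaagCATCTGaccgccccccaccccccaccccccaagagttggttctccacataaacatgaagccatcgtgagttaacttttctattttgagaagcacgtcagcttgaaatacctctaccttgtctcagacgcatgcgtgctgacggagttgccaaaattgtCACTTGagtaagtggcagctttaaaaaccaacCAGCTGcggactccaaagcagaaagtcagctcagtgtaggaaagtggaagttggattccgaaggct
Tmod1: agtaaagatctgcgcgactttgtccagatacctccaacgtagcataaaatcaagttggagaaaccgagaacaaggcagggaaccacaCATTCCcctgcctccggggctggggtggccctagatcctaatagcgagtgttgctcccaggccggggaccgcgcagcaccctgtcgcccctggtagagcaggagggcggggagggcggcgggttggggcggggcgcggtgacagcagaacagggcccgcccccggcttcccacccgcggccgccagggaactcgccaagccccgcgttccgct
Tmod4: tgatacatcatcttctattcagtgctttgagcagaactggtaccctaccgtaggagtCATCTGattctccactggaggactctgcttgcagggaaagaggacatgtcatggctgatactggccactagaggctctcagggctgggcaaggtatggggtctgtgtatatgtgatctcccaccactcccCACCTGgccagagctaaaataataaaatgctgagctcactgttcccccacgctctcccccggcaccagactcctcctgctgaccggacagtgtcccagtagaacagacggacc
Nrap held 3 E-boxes, which begin at -206, -48 and -16 from the start, and Tmod4 held 2, at -193 and -63. Tmod1 held an M-CAT element at -163 and no E-box, and Capza2 (chr6:17636760-17637059, plus strand) held 1 E-box at -249. No MEF2 or CArG motif was found in these 4 windows, and G and C made up 49.7% of the Nrap window, 66% of that of Tmod1, 53.7% of that of Tmod4 and 73% of that of Capza2. A match only describes the letters of the reference in this window. The 65-base array sequences and their places in the Neb transcript are not given in the sources used here.

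Neb differed more between the strains than nearly every other feature, with BL6 at the bottom and BALB at the top for all 4 of its sequences. On the array of DBA 1 over BL6 1 the log2 ratio was 3.21 for AF203898, 3.39 for AF203899, 1.67 for U58108 and 2.79 for X70032. On that of BALB 2 over BL6 2 it was 2.0, 1.70, 2.03 and 2.56 in the same order. On that of BL6 1 over DBA 2, where BL6 carried the other dye, it was -1.19, -0.55, -0.19 and -1.23. The animal of BL6 was thus the lower one on each of the 3 arrays used that held it, for each Neb feature, whichever dye it carried. The array of DBA 2 over BALB 1, without BL6, gave -1.65, -1.61, -1.43 and -1.87, again in the same order. On the remaining 4 arrays, which set CBA against BL10, BL10 against BALB and BL10 against DBA, all 16 Neb ratios lay between -0.49 and 0.12. On the 8 arrays used, Neb ratios beyond this range were thus seen where BL6 was present or where DBA 2 met BALB 1. The values shared by the arrays left out were -0.03, 0.81, 0.22 and 0.35 for AF203898, AF203899, U58108 and X70032. If the label BL6 2 over CBA 1 is the right one, BL6 was the higher animal there for 3 of 4 Neb features, before any dye effect is taken off. If BALB 1 over CBA 2 is right, no BL6 animal was on that array. The shared ratios are then smaller than the arrays used would give. In the larger loop these put BALB 1 at 1.22 to 1.42 and CBA 2 at -0.50 to 0.07 over the Neb features. Under either label the array left out thus departs from the Neb pattern of the 8 arrays.

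**Figure D1:**
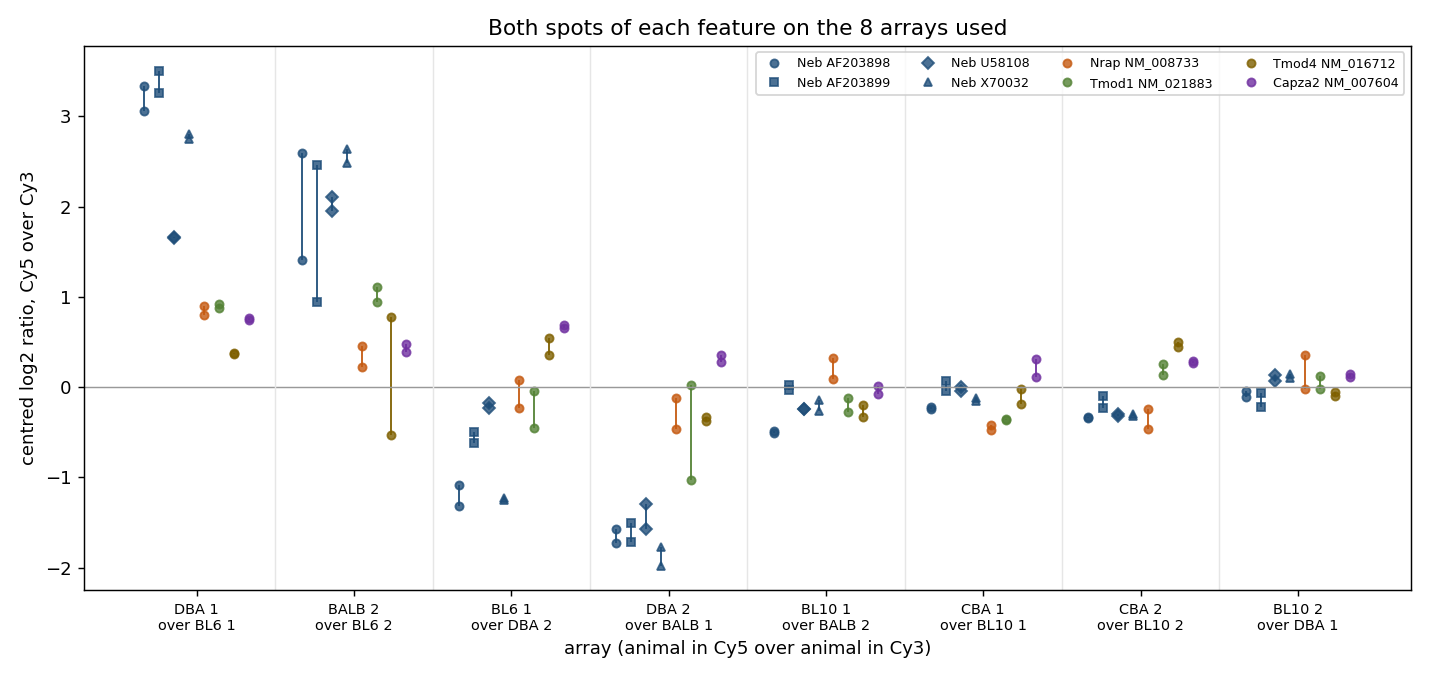
Centred log2 ratio of Cy5 over Cy3 (vertical axis) on each of the 8 arrays used (horizontal axis, the animal in Cy5 over the animal in Cy3), with both spots of each of the 8 features joined by a line. The Neb spots lie far above 0 on the 2 arrays that held BL6 in Cy3, between 0.95 and 3.50, and below 0 with BL6 1 in Cy5 and with DBA 2 over BALB 1.

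The duplicate spots show how firmly each ratio was read. The spots of U58108 differed by at most 0.28 on any array and those of X70032 by at most 0.21. AF203898 and AF203899 had their widest gaps, 1.18 and 1.51, on the array of BALB 2 over BL6 2, where the spots of AF203898 read 2.59 and 1.41 and those of AF203899 read 2.46 and 0.95. Even the lower of these spots was above all Neb spots of the 4 arrays with small ratios. Across all features the SD of the spot differences was 0.196 to 0.462 and the correlation of the spots 0.645 to 0.857 within an array.

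One linear model for all features turned the 8 arrays into strain levels. It had a term for strain, a dye effect for each feature and 1 ratio of animal to array variance, the same for all features. The levels are given on the log2 scale relative to the mean of the 5 strains, with the SE of the fit, and rest on 2 animals per strain. The SE does not measure the spread between the animals of a strain by itself. X70032 stood at 1.20 (SE 0.32) in BALB, 0.45 (SE 0.27) in BL10, 0.06 (SE 0.48) in CBA, 0.03 (SE 0.27) in DBA and -1.74 (SE 0.33) in BL6. AF203898 stood at 1.18 (SE 0.39) in BALB, 0.28 (SE 0.33) in DBA, 0.26 (SE 0.34) in BL10, -0.25 (SE 0.60) in CBA and -1.47 (SE 0.42) in BL6. By fitted level alone, both sequences put CBA, BL10 and DBA between BL6 and BALB. The place of CBA is loose. The unadjusted 95% interval of CBA minus BL6 ran from 0.09 to 3.51 for X70032 and from -0.91 to 3.35 for AF203898. That of CBA minus BALB held 0 for both, at -2.79 to 0.51 and -3.49 to 0.62. AF203899 gave 1.05 (SE 0.48) in BALB, 0.28 (SE 0.40) in DBA, 0.21 (SE 0.42) in BL10, -0.32 (SE 0.73) in CBA and -1.21 (SE 0.51) in BL6. U58108, with the smallest errors of the 4, gave 1.10 (SE 0.24) in BALB, 0.16 (SE 0.21) in BL10, -0.04 (SE 0.20) in DBA, -0.34 (SE 0.36) in CBA and -0.87 (SE 0.25) in BL6. CBA had the widest error for every feature, since each of its animals was left on 1 array, in Cy5 against BL10, and its level leans on the estimate of the dye effect.

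**Figure D2:**
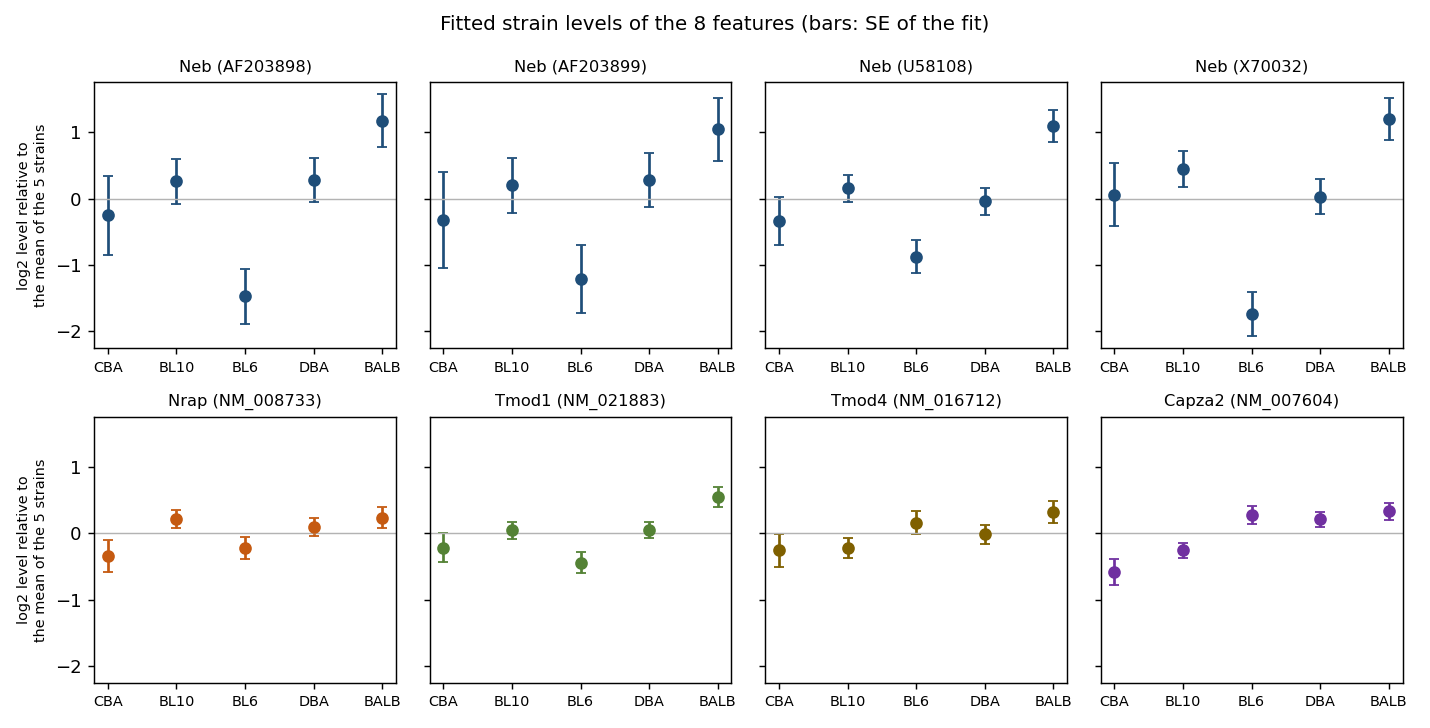
Fitted log2 level of each of the 8 features (vertical axis, relative to the mean of the 5 strains) in each strain (horizontal axis), where points are the fitted levels and bars the SE of the fit. All 4 Neb panels run from BL6 at the bottom, -0.87 to -1.74, to BALB at the top, 1.05 to 1.20, whereas Tmod4 and Capza2 have CBA at the bottom.

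Set against the mean of the other 4 strains, BL6 differed by -2.17 (SE 0.42) for X70032, -1.84 (SE 0.52) for AF203898, -1.51 (SE 0.63) for AF203899 and -1.09 (SE 0.32) for U58108. The median of the 4 was -1.68, a level 3.22-fold lower as a median of the folds. These differences helped to choose the genes, so they describe the strains and were given no test. Among all 7697 features, whose median difference was 0.04, X70032 ranked 2 from the lowest, AF203898 ranked 3, AF203899 ranked 8 and U58108 ranked 20. Of all features, 0.0650% were called lower in BL6 at a false discovery rate (FDR) of 10% by limma's moderated test and 0% were called higher. By the distance from the bottom to the top strain, the same sequences ranked 3, 7, 14 and 26 from the top. Leaving out BL6 1 moved the median of the 4 differences to -4.27, and leaving out BALB 1 moved it to -0.73. The sign of each Neb difference was negative under all 20 alternative settings.

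**Figure D3:**
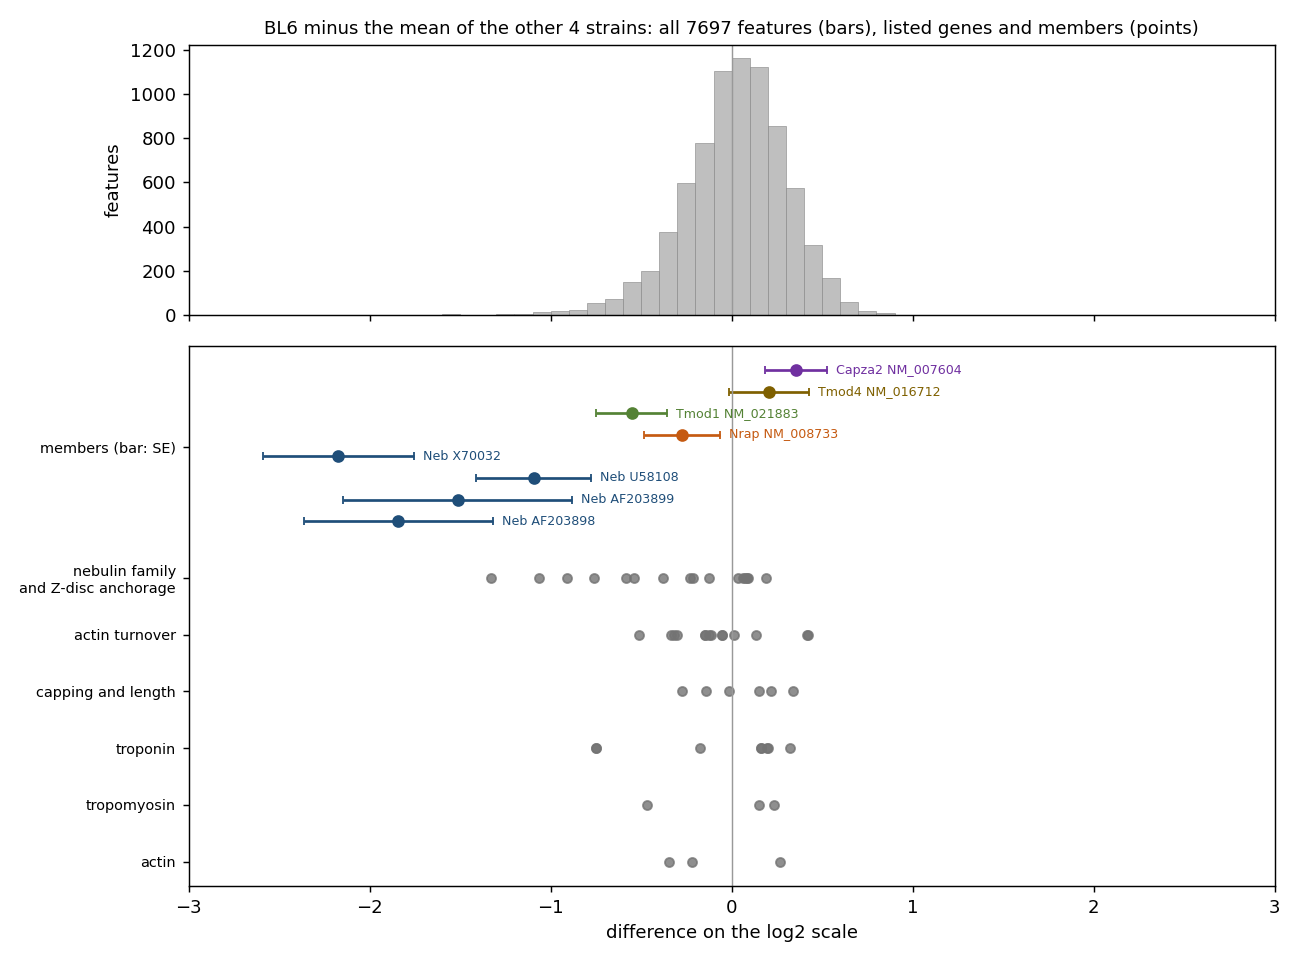
Difference of BL6 from the mean of the other 4 strains on the log2 scale (horizontal axis), as the number of features among all 7697 (upper panel, vertical axis) and for the 8 member features with their SE and the listed thin filament genes by role (lower panel, 1 point for each feature). The 4 Neb points, -2.17 to -1.09, lie in the far left tail, with Actn2 at -1.33 the lowest of the other genes.

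Neb was low in both BL6 animals on the arrays used, but BL6 2 was on only 1 of them, that of BALB 2 over BL6 2. On the array left out under the label BL6 2 over CBA 1, BL6 2 would be the higher animal for 3 of 4 Neb features, before any dye effect is taken off. Within the smaller loop, BL6 2 differed from the mean of CBA, BL10 and BALB by -2.04 for X70032, -1.13 for AF203898, -0.80 for AF203899 and -1.20 for U58108. Within the larger loop, BL6 1 differed from the same 3 strains by -2.70, -2.68, -2.38 and -1.28 in that order. The median over the 4 was -1.16 for BL6 2 and -2.53 for BL6 1. These values use the dye effect of the 8 arrays. When the model was fitted again with 1 BL6 animal only, against all 4 strains, the order turned, to a median of -4.27 with BL6 2 and -2.19 with BL6 1, so which BL6 animal was lower depends on the fit. From the arrays used, the BL6 animal of each loop was the lowest of its animals for every Neb feature, and the BALB animal was the highest. The loops share no animal, and the animal cannot be told apart from the loop.

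**Figure D4:**
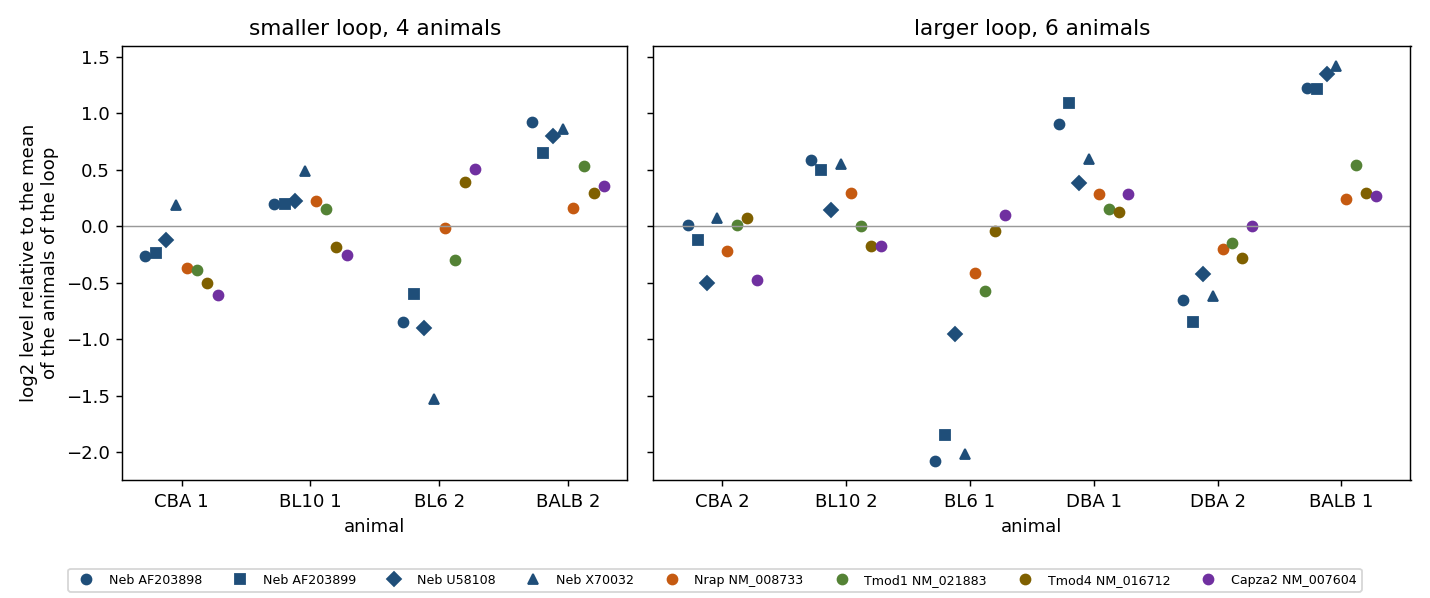
Log2 level of each animal relative to the mean of the animals of its loop (vertical axis), with the fitted dye effect removed, for the 4 animals of the smaller loop (left) and the 6 of the larger loop (right), and 1 point for each of the 8 features. BL6 2 and BL6 1 hold the lowest Neb points of their loops, down to -1.53 and -2.07, and the points of DBA 1 and DBA 2 lie on opposite sides of 0 for Neb.

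BL6 1 was set against DBA on both dyes, and the mean of these arrays, in which the dye cancels, put BL6 1 below the mean of the DBA animals by -2.20 for AF203898, -1.97 for AF203899, -0.93 for U58108 and -2.01 for X70032. Across all features these ranked 1, 4, 25 and 3 from the lowest. The sum of the same arrays holds DBA 1 minus DBA 2 plus 2 times the dye effect, and was 2.02, 2.84, 1.47 and 1.56, with a median of 1.79 against a median size of 0.568 over all features. AF203899 had the highest sum of all 7697. With the fitted dye effects taken off, DBA 1 exceeded DBA 2 by 0.80 to 1.94 over the 4 sequences, with a median of 1.39. A difference between the DBA animals and an error in the dye effect cannot be told apart on these arrays.

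Whether the members varied among the strains other than BL6 is a contrast apart from the BL6 level. It is not independent of their choice, since the study had selected nebulin by an ANOVA over all strains of these same samples. limma's moderated F test over CBA, BL10, DBA and BALB called 0 of the 8 member features at an FDR of 10%, where it called 0.0650% of all features. At an unadjusted p under 0.05 it took 1 of 8, against 8.42% of all features. That feature was Neb U58108, at an adjusted p = 0.564 from limma, and the adjusted p of the 8 ran from 0.564 to 0.820. An ordinary F test without the spread shared across features called 0 of all 7697 at an FDR of 10% and had 532 at an unadjusted p under 0.05, none of them a member. The count of 0 did not hold for every choice of animals. It became 2 without BL10 1, where 0.390% of all features were called, and 2 without BL10 2, where 0.676% were. It became 5 without BL6 1 (14.0% of all features called), 7 without DBA 1 (31.6%), 3 without BALB 1 (4.90%) and 6 without BALB 2 (38.6%). The calls of these reduced fits rose over the whole array, and all but the fit without BALB 1 had 1 residual degree of freedom, so their member counts are no result about the members.

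Of the 48 pairs made by these 4 strains and 8 features, 10 had a 95% interval, not adjusted for their number, that left out 0. That is 20.8% of the pairs, against 8.84% over all features, and the 4 Neb features repeat the same transcript. As with the F test, the pairs are not independent of how the members were chosen. BALB was the higher strain in 7 of the 10, and in 25.1% of such intervals over all features. For Neb U58108, the intervals ran from -1.79 to -0.48 for DBA minus BALB, from -2.69 to -0.18 for CBA minus BALB and from -1.83 to -0.05 for BL10 minus BALB. For X70032 the interval of DBA minus BALB ran from -2.03 to -0.30, around a difference of -1.17. For AF203898 the same difference was -0.90, with an interval from -1.97 to 0.18, and for AF203899 it was -0.77, with an interval from -2.08 to 0.54. The intervals of these sequences are wide, and a p or interval that misses the threshold does not show that the strains were alike.

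Nrap, the nebulin relative that scaffolds the growing myofibril, varied much less. Its log2 ratio was 0.86 for DBA 1 over BL6 1, 0.34 for BALB 2 over BL6 2, -0.06 for BL6 1 over DBA 2, -0.29 for DBA 2 over BALB 1, 0.21 for BL10 1 over BALB 2, -0.44 for CBA 1 over BL10 1, -0.35 for CBA 2 over BL10 2 and 0.16 for BL10 2 over DBA 1. The largest ratio again had BL6 in Cy3, and CBA was below BL10 on both arrays that paired them. The strain levels were 0.24 (SE 0.16) in BALB, 0.22 (SE 0.14) in BL10, 0.10 (SE 0.13) in DBA, -0.22 (SE 0.17) in BL6 and -0.34 (SE 0.24) in CBA. BL6 differed from the other 4 by -0.28 (SE 0.21), rank 1059 of 7697 from the lowest. Against the 3 strains of the same loop it was -0.52 for BL6 1 and -0.02 for BL6 2, but the order turned when the model was fitted with 1 BL6 animal only, at -0.43 with BL6 1 and -0.94 with BL6 2. It was 0.0016 on leaving out BALB 1. CBA minus BL10 was -0.55, with an unadjusted interval from -1.03 to -0.07.

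Tmod1, the tropomodulin first described in red cells and found in heart and skeletal muscle, followed Neb at a smaller scale. Its log2 ratio was 0.91 for DBA 1 over BL6 1, 1.03 for BALB 2 over BL6 2, -0.24 for BL6 1 over DBA 2, -0.50 for DBA 2 over BALB 1, -0.19 for BL10 1 over BALB 2, -0.35 for CBA 1 over BL10 1, 0.20 for CBA 2 over BL10 2 and 0.04 for BL10 2 over DBA 1. As with Neb, the BL6 animal was the lower one on the 3 arrays that held it and DBA 2 lay below BALB 1. The levels were 0.55 (SE 0.15) in BALB, 0.05 (SE 0.13) in DBA, 0.05 (SE 0.13) in BL10, -0.21 (SE 0.23) in CBA and -0.44 (SE 0.16) in BL6. BL6 stood -0.55 (SE 0.20) from the other 4 strains, rank 259 from the lowest. Against the 3 strains of its loop the difference was -0.40 for BL6 2 and -0.76 for BL6 1, and CBA 1, not BL6 2, was the lowest animal of the smaller loop. The spots of Tmod1 disagreed on the array of DBA 2 over BALB 1, at 0.02 and -1.02, and the difference of BL6 was -0.26 from the first spot alone and -0.87 from the second alone. It was -1.30 on leaving out BL6 1, -0.64 on leaving out BL6 2 and -0.35 on leaving out BALB 1, so that here too the order of the BL6 animals depends on the fit. DBA minus BALB was -0.50, with an unadjusted interval from -0.90 to -0.09.

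Tmod4, the tropomodulin typical of skeletal muscle, did not share the order of Neb and Tmod1. Its ratio was 0.38 for DBA 1 over BL6 1, 0.12 for BALB 2 over BL6 2, 0.46 for BL6 1 over DBA 2, -0.35 for DBA 2 over BALB 1, -0.26 for BL10 1 over BALB 2, -0.10 for CBA 1 over BL10 1, 0.47 for CBA 2 over BL10 2 and -0.08 for BL10 2 over DBA 1. BL6 1 was below DBA 1 on one array and above DBA 2 on the other, and the spots for BALB 2 over BL6 2 read -0.53 and 0.78, on opposite sides of 0. The levels were 0.33 (SE 0.17) in BALB, 0.16 (SE 0.18) in BL6, -0.01 (SE 0.14) in DBA, -0.22 (SE 0.15) in BL10 and -0.26 (SE 0.25) in CBA. BL6 differed from the other 4 strains by 0.21 (SE 0.22), about the size of its error. Within the loops, with the dye effect of the 8 arrays, the difference was 0.53 for BL6 2 and -0.10 for BL6 1. When the model was fitted again with 1 BL6 animal only, the order turned, to -0.26 with BL6 2 and 0.05 with BL6 1, so no sign can be given to either animal.

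Capza2, the alpha 2 subunit of the CapZ dimer at the barbed end, had the largest fitted dye effect of the members. Its ratio was 0.77 for DBA 1 over BL6 1, 0.43 for BALB 2 over BL6 2, 0.68 for BL6 1 over DBA 2, 0.32 for DBA 2 over BALB 1, -0.03 for BL10 1 over BALB 2, 0.22 for CBA 1 over BL10 1, 0.28 for CBA 2 over BL10 2 and 0.13 for BL10 2 over DBA 1. The Cy5 animal was the higher one on 7 of 8 arrays, and the fitted dye effect was 0.58, against a median size of 0.27 over all features. The levels were 0.33 (SE 0.13) in BALB, 0.28 (SE 0.14) in BL6, 0.21 (SE 0.11) in DBA, -0.25 (SE 0.11) in BL10 and -0.58 (SE 0.20) in CBA. BL6 differed from the other 4 strains by 0.36 (SE 0.17), and by -0.26 with no dye term. Within the loops the difference was 0.68 for BL6 2 and 0.23 for BL6 1, and on the dye-free mean of the arrays with DBA it was -0.04. Unadjusted intervals left out 0 for CBA minus BALB (-1.59 to -0.24), CBA minus DBA (-1.42 to -0.18), BL10 minus BALB (-1.06 to -0.10) and BL10 minus DBA (-0.90 to -0.03).

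**Figure D5:**
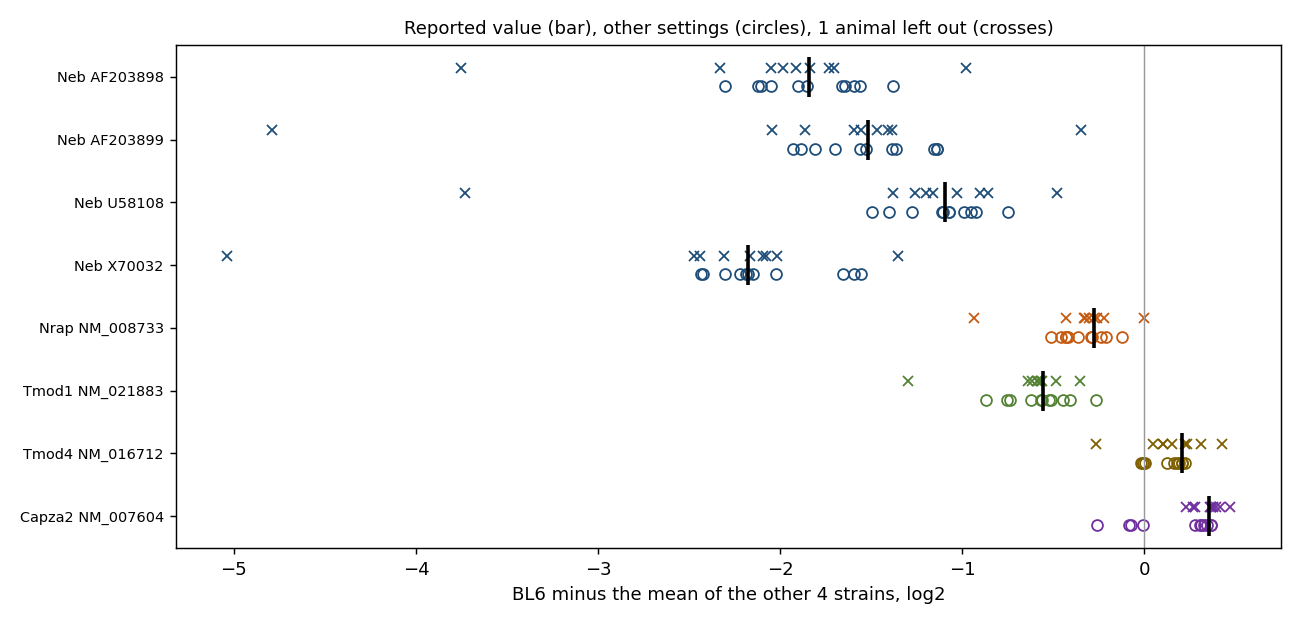
Difference of BL6 from the mean of the other 4 strains on the log2 scale (horizontal axis) for each of the 8 features (vertical axis), as reported (black bar), under other ways of processing (circles) and with 1 animal left out (crosses). All Neb and Tmod1 marks stay left of 0, with the far left Neb crosses from leaving out BL6 1, while Tmod4 and Capza2 have marks on both sides.

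Taking the 8 features side by side, BL6 was the lowest strain in 5, the 4 of Neb and Tmod1, and CBA was the lowest in Nrap, Tmod4 and Capza2. BL6 was the lowest strain in 19.6% of all features. The 5 are no enrichment, since the members were picked with the low BL6 levels of Neb and Tmod1 known and 4 of them read the same transcript. The 5 became 1 on leaving out BALB 1 and 1 on leaving out BALB 2. BALB was the highest strain by fitted level in all 8, against 20% of all features. This is no enrichment either, since 4 of the 8 read the same transcript and the members were not chosen independently of the strain differences. The unadjusted interval of BL6 minus BALB held 0 for Tmod4 (-0.61 to 0.29) and Capza2 (-0.40 to 0.30). The neighbours in the order of CBA, BL10, DBA and BALB had unadjusted intervals that held 0, other than BALB and BL10 for U58108, BALB and DBA for Tmod1, and DBA and BL10 for Capza2.

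Over the 8 arrays the ratios, with the fitted dye effect taken off, gave a description of which genes ran alike. The points share animals between arrays, so a correlation here holds fewer than 8 independent values and no p is given. The 6 pairs of Neb features correlated at r of 0.915 to 0.984. With the mean of the Neb features, Tmod1 correlated at 0.934 and Nrap at 0.810, while Capza2 reached 0.447 and Tmod4 0.391. Tmod4 and Capza2 correlated with each other at 0.699. An r of at least 0.9 with the Neb mean was reached by 204 features, or 2.65%, so that of Tmod1 is shared by many others. The named features most like Neb were Ms4a6d at 0.987, Panx1, a channel protein, at 0.986, Hmgn5, a nucleosome-binding protein, at 0.985, Myom1, the myomesin of the M-band, at 0.984 and Tle5, a transcriptional corepressor, at 0.983. Their BL6 differences, -0.57 for Ms4a6d, -0.24 for Panx1, -0.58 for Hmgn5, -0.95 for Myom1 and -0.56 for Tle5, were all smaller than that of any Neb feature.

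The rest of the thin filament and its anchorage was read from a list of 69 genes chosen for function, of which 50 had a feature. In BL6 against the other 4 strains, limma's moderated test called 0 of the 50 lower and 0 higher at an FDR of 10%. At an unadjusted p under 0.05, 8 were lower, where 6.64% of all features were, and 2 were higher, where 8.38% of all were. An ordinary test had 6 of the 50 at that p in either direction, where 11.5% of all features were. The median difference was -0.12, with 29 of the 50 below 0, against a median of 0.04 and 44.3% below 0 over all features, and BL6 was the lowest strain in 16. The count called lower became 2 with the shared values entered as BL6 2 over CBA 1, 3 with them entered as BALB 1 over CBA 2 and 1 after quantile normalization. In these fits 0.130%, 1.01% and 0.494% of all features were called lower. It became 1 without CBA 2 (0.312% of all features called lower), 3 without BL10 2 (0.286%), 6 without BL6 1 (2.51%), 14 without DBA 1 (13.8%) and 11 without BALB 2 (772 of all 7697 features). The count called higher became 5 without DBA 1 (17.4% of all features called higher) and 3 without BALB 2 (12.5%). In the 4 strains other than BL6, 0 of the 50 were called by the moderated F test, where 0.0650% of all features were, and 13 had an unadjusted p under 0.05, where 8.42% of all did.

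Of the 8 lower values, 4 belonged to the Z-disc group. Of its 16 features of the nebulin family and Z-disc anchorage, 4 were lower in BL6 at an unadjusted p under 0.05 and 0 were higher. Of all features, 6.64% were lower at that p and 8.38% higher. The ordinary test, without the shared spread, had 2 of the 16 at that p, Actn2 and Lasp1. Actn2, the alpha-actinin that crosslinks thin filaments at the Z-disc, differed by -1.33 (SE 0.24, adjusted p = 0.150 from limma), and Lasp1, a small actin-binding relative of nebulin, by -0.54 (SE 0.14, adjusted p = 0.226 from limma). The other 2 of the 4, named after their values were seen, were Tcap, the telethonin that caps titin, at -1.06 (SE 0.39) and the filamin Flnc at -0.76 (SE 0.21). Actn2 and Tcap were among the genes the study had selected on these same samples and give no independent evidence of direction. Actn3, the alpha-actinin of fast fibres, stood at 0.08 (SE 0.21).

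In the filament proper and its other caps, no feature was as low as Actn2 or Tcap, though Tnnt3 and Tnnc2 came near Flnc. The 3 actin features went both ways, with Actb, the cytoplasmic beta actin, at -0.35 (SE 0.15), Actg1, the cytoplasmic gamma actin, at 0.27 (SE 0.16) and Acta1, the skeletal alpha actin, at -0.22 (SE 0.14). Of 3 tropomyosins, which lie along the actin groove, Tpm1 stood at -0.47 (SE 0.16) and Tpm3, the form of slow fibres, at 0.23 (SE 0.15). Among 8 troponins, the calcium switch of the filament, the fast forms went both ways. Tnnt3 and Tnnc2 stood at -0.75 each (SE 0.22 and 0.31) and Tnni2 at 0.20 (SE 0.14), while the group median was 0.16. By fitted level, BL6 was not the lowest strain for Tnnc2 or Tpm1. Tnnc2 stood at -0.62 in CBA and -0.60 in BL6, and Tpm1 at -0.43 in CBA and -0.38 in BL6. The 6 other genes of capping and length (Capza1, Capza3, Capzb, Capg, Tmod2 and Tmod3) included 0 at an unadjusted p under 0.05 in limma, 0 called at an FDR of 10% and 0 at that p in the ordinary test. Their median was 0.07, from Capza3, the testis form of the alpha subunit, at -0.28 to Capg, a gelsolin-like capper, at 0.34. Of 14 genes of actin turnover, 10 were below 0, and the only ones at an unadjusted p under 0.05 were Cap1 and Vil1, both higher at 0.42. None of the genes in this paragraph was called at an FDR of 10%.

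Markers of fibre types and of other cells that the muscle holds were read in the same way, as differences of BL6 from the other 4 strains. The fibroblast markers Col3a1, Col1a1 and Dcn were all below 0, at -1.25 (SE 0.26) for Col3a1 and -0.81 (SE 0.17) for Col1a1, and BL6 was the lowest strain in 2 of the 3. Of 5 leukocyte markers 4 were below 0, with C1qa at -1.02 (SE 0.18) and Cd68 at -0.51 (SE 0.16). Ptprc at -0.09 and Cd14 at -0.13 were near 0, and Lyz2 stood at 0.33. Both C1qa and Cd68 had their highest fitted level in CBA, at 1.23 and 1.05. Cd68 was lowest in DBA, at -0.43, with BL6 at -0.41. Of 5 fat cell markers 3 were below 0, with a median of -0.22, Fabp4 at -1.05 (SE 0.73) and Scd1 at -0.65 (SE 1.21) against Lep at 0.24 and Adipoq at 0.14. The blood markers were Hba-a1, a globin, at -1.02 (SE 0.59) and Alas2, of haem synthesis, at 0.09 (SE 0.18), and Nppb of heart stood at 0.26 (SE 0.15). The median of 5 slow fibre markers was 0.20, with Atp2a2 at 0.43 (SE 0.16), Mb at 0.25 (SE 0.16) and Tnnc1 at -0.17 (SE 0.15). That of 6 fast fibre markers was 0.08, with Tnnt3 and Tnnc2 the lowest and Tnni2 the highest, at 0.20. None of these was called at an FDR of 10% by limma, and no summed level can be given from ratios. The part of these markers in the values of Neb and Tmod1 was not tested.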

How the data were processed

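Each of 10 samples is an array that sets an animal in Cy5 against an animal in Cy3, with groups and dyes taken from the labels. The authors read the spots in GenePix, took off the background around each spot and applied variance stabilization (VSN). What they deposited is the natural log of the Cy5 signal divided by the Cy3 signal, the scale being inferred from VSN and the direction from the labelled dyes. These values carry neither GenePix marks nor brightness, so every feature was tested and nothing can be said of signal above background.

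Ratios were converted to log2, duplicate spots were averaged (15552 spots, 7776 features), 80 features of 1 control sequence were averaged to 1 and array medians were set to 0. Names came from the array annotation, with a lone symbol for 6831 features, more than 1 for 7 and no symbol for 938. limma 3.58.1 in R 4.3.3 was fitted to 8 arrays with strain and dye terms after whitening for the animal, with 1 ratio of animal to array variance (0.446, restricted maximum likelihood) for all features. This left 3 residual degrees of freedom, to which the shared spread added 6.13. p-values were adjusted over all 7697 features after Benjamini and Hochberg, as in the FDR of 10% of the methods. They rest on a residual that holds array and animal variation together and on the spread shared across features. With 2 animals per strain on few arrays, they do not measure the spread between the animals of a strain by itself. Levels of animals within a loop came from a generalised inverse (MASS 7.3.60.0.1). The steps were tested on simulated data. Python 3.11.15 and matplotlib 3.10.9 served for the figures.

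The members, the lists and the tests were chosen with earlier results of these data known. Named were all member features, in each role of the thin filament list the 2 features with the smallest p in BL6 (Acta1, outside this rule, was named to complete the actins), the 5 named features most like the Neb mean, and up to 2 features of each marker list with the largest BL6 difference. Further features of the thin filament and marker lists were named beside these, outside the rule. Alternatives covered the identical arrays, centring, array spreads, quantile normalization, either spot alone, no dye term, arrays as independent, a replicate block, an FDR of 5%, an ordinary test and omitting each animal in turn (9 of the 10, since the fit without DBA 2 could not be made). RefSeq promoter windows were searched with Python.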

Additional observations from a re-analysis of the deposited data

How the results depend on the processing

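The count of 0 members called between CBA, BL10, DBA and BALB and the counts of 0 thin filament genes called in BL6 were the same with no centring, equal array spreads, either spot alone, no dye term, arrays as independent, the ordinary test and an FDR of 5%. Of thin filament genes, 2 were called lower with the shared values as BL6 2 over CBA 1, 3 with them as BALB 1 over CBA 2 and 1 after quantile normalization. Leaving out 1 animal moved the members called from 0 to 7, the thin filament genes called lower from 0 to 14 and those called higher from 0 to 5. The highest counts came without DBA 1, where 31.6%, 13.8% and 17.4% of all features were called in these tests. It moved the median Neb difference from -4.27 to -0.73 and the features with BL6 lowest from 1 to 7. A fit without a BL6 animal assumes that the remaining one varies like the others. The fit without DBA 2 could not be made. The median Neb difference was -1.38 with all 10 arrays as labelled, -1.35 and -2.05 with the shared values entered once under either label, and -1.26 with equal array spreads. With the animal number as a replicate block it was -2.0, and the counts of members and thin filament genes called stayed at 0. Over all features, the block moved those called lower in BL6 from 5 to 0 and those called between the other 4 strains from 5 to 4. The animal number only names an animal, since the labels tie no animals of the same number together. Over the 20 alternatives the sign changed in 0 for each Neb feature and Tmod1, 1 for Nrap, 4 for Tmod4 and 4 for Capza2 (-0.08, -0.07 and -0.0036 with the shared values kept in any way, -0.26 with no dye term). The causes of these changes were not tested. With 2 animals per strain and 8 arrays, the number of arrays limits the precision.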
